A study of Mus musculus with 8 samples.

Results

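The genes Fads1, Fads2, Fads3, Elovl1, Elovl2, Elovl5, Acsl1, Acsl3 and Acsl5 encode fatty acid desaturases, elongases and long-chain acyl-CoA synthetases. These 9 genes were selected by symbol from the 23699 loci listed in each liver library, and each symbol matched a single locus. All 9 were among the 10865 loci that were kept for testing because 2 or more of the 8 libraries reached 1 FPKM. FPKM counts sequenced fragments relative to transcript length and to all mapped fragments of a library. It is meant to make levels comparable between genes of different length.

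Dietary essential fatty acids are converted in the endoplasmic reticulum of hepatocytes into longer and more unsaturated chains such as arachidonic and docosahexaenoic acid. FADS2 inserts the first double bond, ELOVL5 lengthens the chain, FADS1 inserts a further double bond, and ELOVL2 carries the longest polyunsaturated chains on. A chain enters these steps, or oxidation, triglyceride and phospholipid synthesis, only after an acyl-CoA synthetase has joined it to coenzyme A. In mouse liver, genes of this pathway are known targets of SREBP-1c, LXR and PPAR-alpha, factors that respond to feeding, oxysterols and fatty acids.

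Liver was taken from male C57/BL6 mice aged 8 weeks, and polyadenylated RNA was sequenced from 4 groups of 2 mice each. Re-fed LMKO mice are labelled as liver-specific Med23 knockouts and had 24 h of food after a 24 h fast, and re-fed control mice had the same regime. Fasted LMKO and fasted control mice were taken at the end of the 24 h fast. Med23 is a subunit of Mediator, which links transcription factors to RNA polymerase II. The sources used here do not give the promoter that drives the recombinase or the genotype of the controls beyond that name. All groups had thus been fasted, and no group fed without interruption was analysed here.

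FPKM summed over loci was 511926 to 597650 in the re-fed libraries and 453652 to 468218 in the fasted libraries. The number of fragments behind them is unknown. Across loci, log2(FPKM + 1) correlated at 0.963 to 0.976 between the mice of a group. Each locus's deviation from its mean over the libraries correlated with log2 transcript length at -0.357 to -0.0182 in re-fed libraries and at 0.222 to 0.293 in fasted libraries, where the correlations are across genes, which are not independent replicates. A prefix in the deposited names also splits the libraries by feeding, so a batch marked by it cannot be told apart from feeding. Med23 had an FPKM of 1.61 and 1.74 in re-fed LMKO, 2.86 and 2.33 in re-fed controls, 2.35 and 2.18 in fasted LMKO and 2.86 and 2.93 in fasted controls. Every LMKO library lay below both controls of its feeding state, but the difference over both states was not called (-0.34 on the log2 scale, SE 0.08, Benjamini-Hochberg adjusted p = 0.173 in limma). All 8 hepatocyte markers had an FPKM of at least 1 in every library, with a summed level of 23690 to 33910.

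The first question was how the 9 genes stood in fed-again against fasted liver. Re-feeding raised Fads1, Elovl1, Acsl3 and Acsl5 and lowered Fads3, Elovl2 and Acsl1, on the mean of both genotypes. The change was largest for Elovl1, which averaged 34.8 ± 2.44 FPKM in re-fed and 10.3 ± 0.653 FPKM in fasted liver (SD, n = 4 each). Fads2 and Elovl5 had lower mean levels in re-fed liver but did not pass the test. The 7 calls among 9 genes stand beside 53.1% of all tested loci called in the same comparison, 32.4% higher and 20.6% lower, so most of the liver transcriptome that was tested moved with feeding and the share among these genes is not a result about them. In 6 of the 9 genes no re-fed library overlapped a fasted one, against 45.9% of all loci. Calls were made with limma on log2(FPKM + 1) at a Benjamini-Hochberg adjusted p under 0.05 over all tested loci, and the fold changes below are on that scale.

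**Figure D1:**
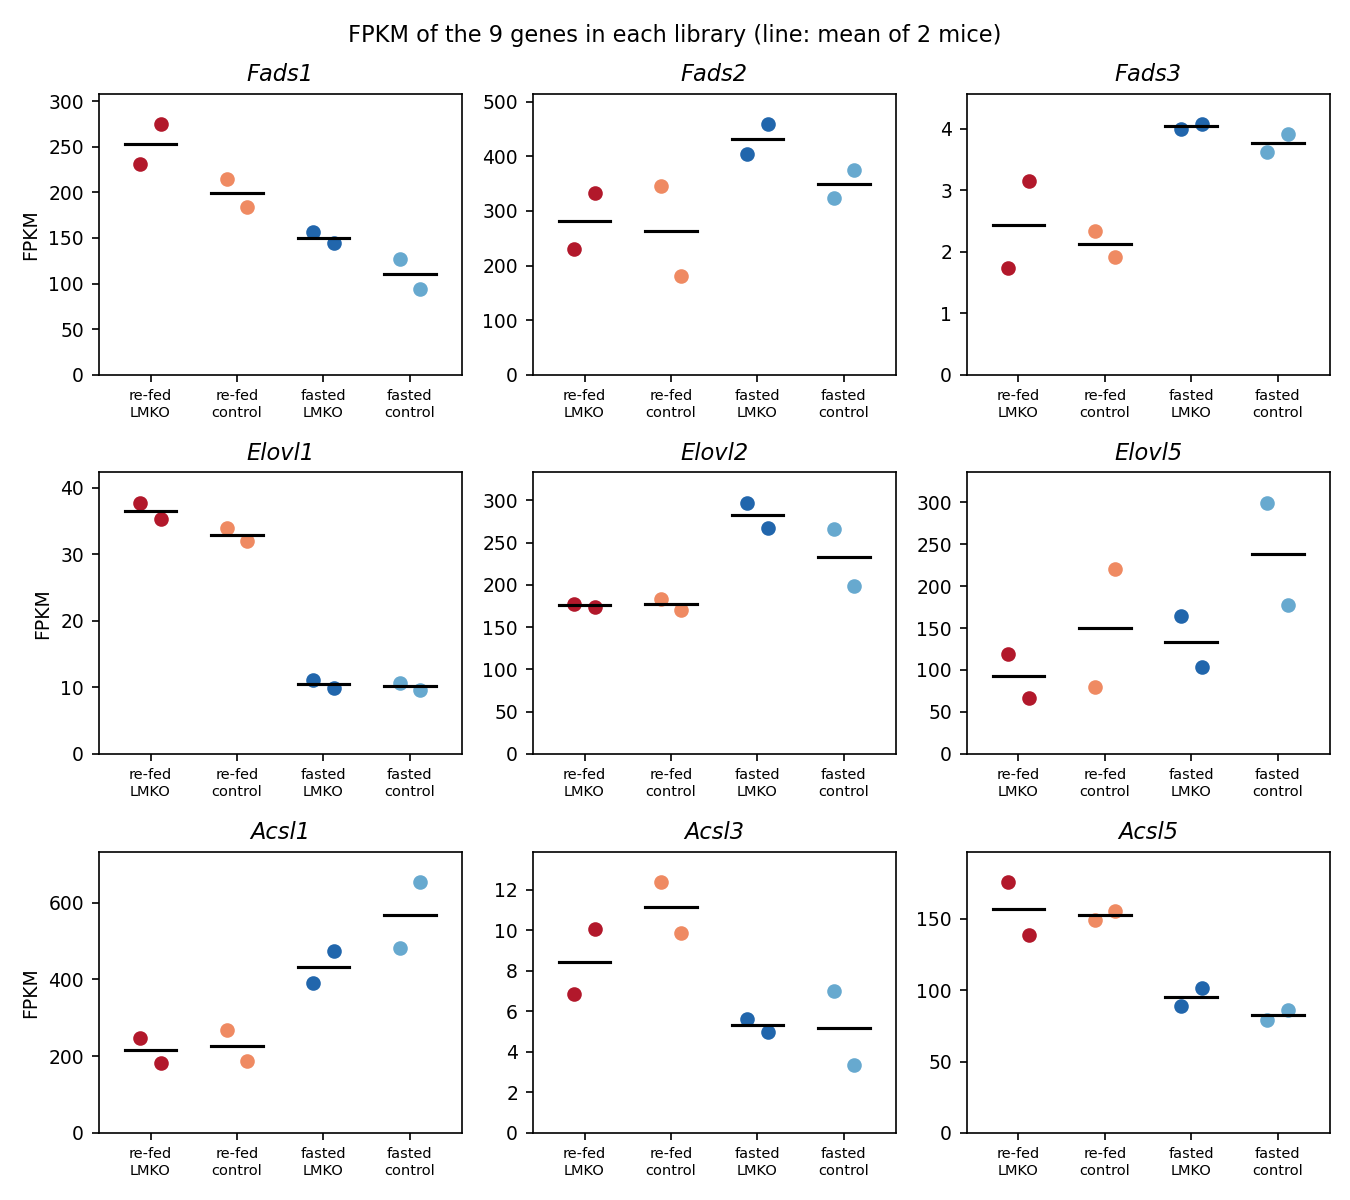
FPKM (vertical axes, each from 0) of the 9 genes in the 8 libraries, with the groups along the horizontal axes; points are mice and lines are the means of 2 mice. The 4 re-fed libraries of Elovl1 lie between 31.9 and 37.8 FPKM and the 4 fasted ones between 9.64 and 11.1 FPKM, while the re-fed and fasted libraries of Elovl5 overlap.

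Among the desaturases, Fads1 encodes the enzyme that makes arachidonic and eicosapentaenoic acid from their immediate precursors (chr19, 10257378 to 10271362, mm9). Fads1 had an FPKM of 231 and 275 in re-fed LMKO, 214 and 183 in re-fed controls, 156 and 145 in fasted LMKO and 127 and 93.5 in fasted controls. All 4 re-fed libraries were above all 4 fasted libraries. The rise over both genotypes was 0.80 (SE 0.13, limma adjusted p = 0.00268).

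Fads2, which encodes the enzyme of the first desaturation step, lies 81384 bp from Fads1 in the same cluster (chr19, 10138654 to 10175993). Fads2 had an FPKM of 231 and 332 in re-fed LMKO, 346 and 181 in re-fed controls, 405 and 460 in fasted LMKO and 324 and 375 in fasted controls. The re-fed mice ranged widely, and re-fed LMKO replicate 2 and re-fed control replicate 1 lay above the lowest fasted library. The log2 fold change of -0.56 (SE 0.23, 95% interval -1.10 to -0.02, limma adjusted p = 0.0757) was not called. It was called without re-fed control replicate 1 (-0.79, adjusted p = 0.0123), with median-ratio scaling (adjusted p = 0.0397) and with quantile normalization (-1.03, adjusted p = 0.0107).

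Fads3, whose product introduces a double bond into sphingoid bases, is 4492 bp from Fads2 (chr19, 10116038 to 10134161). It had an FPKM of 1.73 and 3.15 in re-fed LMKO, 2.34 and 1.91 in re-fed controls, 4.0 and 4.09 in fasted LMKO and 3.63 and 3.92 in fasted controls. Every re-fed library was below every fasted library at these low levels. The log2 fold change was -0.60 (SE 0.14, limma adjusted p = 0.0115), a call that was lost when all loci were fitted unfiltered (adjusted p = 0.0562).

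Fads1 and Fads2 thus stood in different proportion in the 2 states. The ratio of Fads1 to Fads2 FPKM was 1.0 and 0.828 in re-fed LMKO, 0.620 and 1.02 in re-fed controls, 0.386 and 0.315 in fasted LMKO and 0.390 and 0.249 in fasted controls. Every re-fed ratio lay above every fasted ratio. Fads1 made up 38.1% to 50.1% of the summed FPKM of the 3 desaturases in re-fed liver and 19.8% to 27.9% in fasted liver. The sum itself overlapped, at 366 to 611 FPKM in re-fed and 455 to 609 FPKM in fasted liver. These shares are descriptions with no test. The trend with transcript length, which differed between re-fed and fasted libraries, was not removed from the shares, ratios and order of levels.

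**Figure D2:**
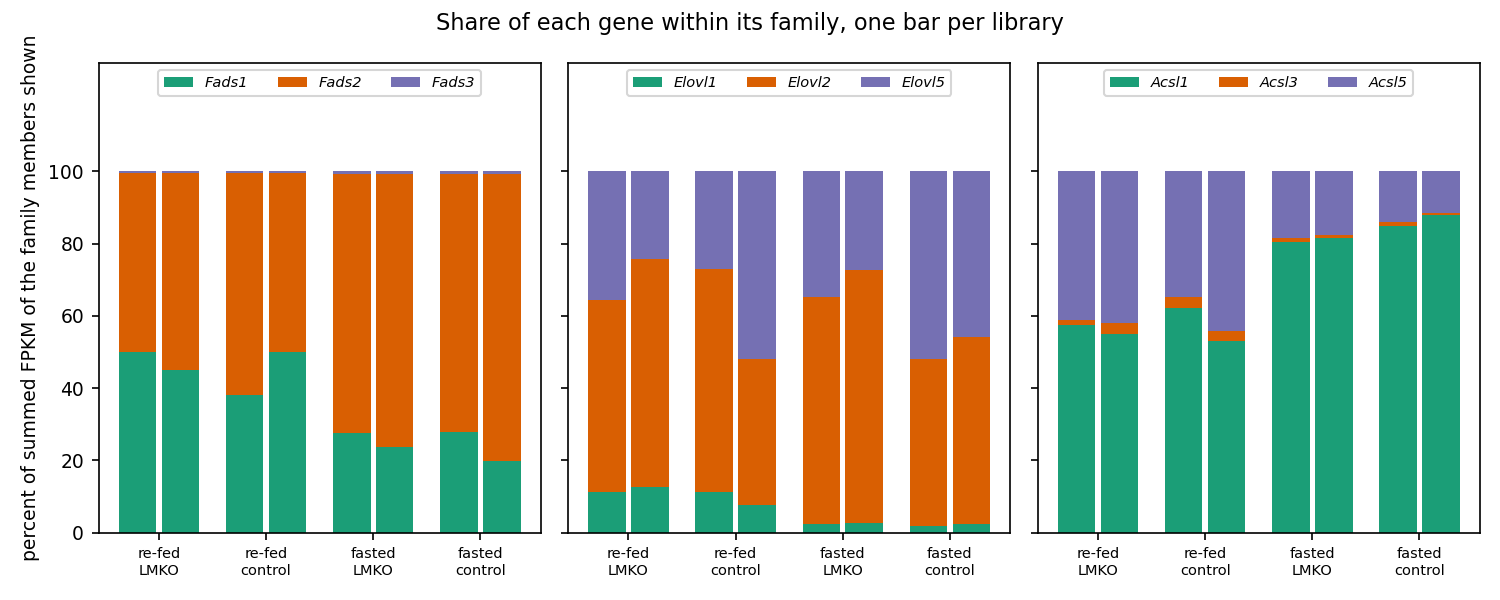
Percent of the summed FPKM (vertical axis) of the 3 desaturases, the 3 elongases and the 3 acyl-CoA synthetases held by each gene, with 1 bar per library. The Fads1 part is 38.1% to 50.1% in re-fed and 19.8% to 27.9% in fasted libraries, and the Acsl1 part is 52.9% to 62.3% in re-fed and 80.5% to 88.0% in fasted libraries.

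Among the elongases, Elovl1 encodes the enzyme that extends saturated and monounsaturated very-long chains for sphingolipids (chr4, 118100698 to 118105521). Elovl1 had an FPKM of 37.8 and 35.3 in re-fed LMKO, 34.0 and 31.9 in re-fed controls, 11.1 and 9.92 in fasted LMKO and 10.6 and 9.64 in fasted controls. The mice of each group lay close together and the feeding states were far apart. The rise was 1.66 (SE 0.08, limma adjusted p = 9.42e-05), and 1.37 to 1.74 over the alternatives. The annotated locus overlaps that of Cdc20 by 16 bp, and Cdc20 was itself at 0.297 to 1.95 FPKM in re-fed and 0.0595 to 0.0919 FPKM in fasted liver. The sources used here do not say whether reads were counted by strand.

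Elovl2, which encodes the elongase of the longest polyunsaturated chains on the way to docosahexaenoic acid, moved the other way (chr13, 41277751 to 41315772). It had an FPKM of 177 and 174 in re-fed LMKO, 184 and 171 in re-fed controls, 297 and 267 in fasted LMKO and 266 and 199 in fasted controls. The 4 re-fed libraries lay in a narrow band below all fasted ones. The log2 fold change was -0.53 (SE 0.11, limma adjusted p = 0.00803).

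Elovl5 encodes the elongase that follows the first desaturation step (chr9, 77765172 to 77832326). It had an FPKM of 119 and 66.8 in re-fed LMKO, 80.1 and 220 in re-fed controls, 164 and 104 in fasted LMKO and 300 and 178 in fasted controls. It was the most variable of the 9 genes within groups on the log2 scale. The log2 fold change of -0.67 (SE 0.38, 95% interval -1.57 to 0.24, limma adjusted p = 0.179) was not called. It was called without re-fed control replicate 2, the highest re-fed library (-1.03, adjusted p = 0.0449). The Elovl5 to Elovl2 ratio was 0.385 to 1.29 in re-fed and 0.388 to 1.13 in fasted liver, and the states overlapped.

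Among the acyl-CoA synthetases, Acsl1 encodes the main long-chain enzyme of liver, which supplies both oxidation and triglyceride synthesis (chr8, 47556396 to 47621404). Acsl1 had an FPKM of 247 and 183 in re-fed LMKO, 268 and 186 in re-fed controls, 391 and 472 in fasted LMKO and 482 and 654 in fasted controls. All re-fed libraries were below all fasted ones. The log2 fold change was -1.17 (SE 0.18, limma adjusted p = 0.00224).

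Acsl5 encodes an isoform found on the endoplasmic reticulum and mitochondria and linked in liver to triglyceride synthesis (chr19, 55327859 to 55371118). Acsl5 had an FPKM of 176 and 138 in re-fed LMKO, 149 and 156 in re-fed controls, 89.1 and 101 in fasted LMKO and 79.3 and 85.9 in fasted controls. All re-fed libraries were above all fasted ones, the reverse of Acsl1. The rise was 0.80 (SE 0.11, limma adjusted p = 0.00137). The ratio of Acsl5 to Acsl1 FPKM was 0.558 to 0.836 in re-fed and 0.131 to 0.228 in fasted liver.

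Acsl3, whose product sits on the endoplasmic reticulum and lipid droplets, was the least abundant of these synthetases (chr1, 78654400 to 78704318). It had an FPKM of 6.83 and 10.1 in re-fed LMKO, 12.4 and 9.87 in re-fed controls, 5.64 and 4.99 in fasted LMKO and 7.0 and 3.32 in fasted controls. One pair of libraries overlapped, re-fed LMKO replicate 1 and fasted control replicate 1. The rise of 0.80 (SE 0.22, limma adjusted p = 0.0196) was lost without re-fed LMKO replicate 2 (0.68, adjusted p = 0.0618), without re-fed control replicate 1 (0.72, adjusted p = 0.0626), without fasted LMKO replicate 2 (0.76, adjusted p = 0.0596) and in the unfiltered fit (adjusted p = 0.0931). Utp14b lies wholly inside the Acsl3 locus, at 2.06 to 3.65 FPKM in re-fed and 0.953 to 3.02 FPKM in fasted liver.

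Direction did not turn under any setting tried for any of the 9 genes in the comparison of feeding states. With quantile normalization, however, the log2 fold change was 0.39 for Fads1, 0.39 for Acsl5 and -0.97 for Elovl2, which moved each by over 1.5 times while all 3 stayed called. Of all calls in this comparison 61.1% were higher in re-fed liver, against 51.1% with median-ratio scaling, 50.3% with quantile normalization and 50.8% once the length trend was removed.

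Summed marker levels of other cell types also differed between the states, although the Kupffer cell and erythroid sums overlapped. Cholangiocyte markers (1 of 5 at an FPKM of at least 1 in every library) summed to 24.2 to 30.1 FPKM in re-fed and 8.12 to 12.03 FPKM in fasted liver, mostly from Spp1. Kupffer cell markers (5 of 7) summed to 31.6 to 75.8 FPKM in re-fed and 75.4 to 109 FPKM in fasted liver, sinusoidal endothelial markers (5 of 6) to 36.4 to 48.6 and 57.2 to 82.0 FPKM, and stellate cell markers (4 of 6) to 42.5 to 74.5 and 78.3 to 87.0 FPKM. The stellate sum was mostly Dcn, at 32.43 to 54.35 FPKM in re-fed and 66.88 to 75.89 FPKM in fasted liver. Col3a1 of the same list went the other way, at 2.79 to 6.77 and 0.795 to 2.26 FPKM, and Col1a1 overlapped between the states. Other genes that overlapped were Cd5l of the Kupffer list (10.62 to 29.56 and 16.44 to 35.57 FPKM) and Clec4g of the endothelial list (23.79 to 33.27 and 15.89 to 34.1 FPKM). The adipocyte list (1 of 5) summed to 1059 to 3859 FPKM in re-fed and 31.1 to 83.5 FPKM in fasted liver, nearly all of it Car3, which hepatocytes also express, while Lep was listed at 0 in every library and Adipoq stood at 0.137 FPKM or less. Erythroid markers (3 of 4) summed to 95.4 to 155 FPKM in re-fed and 41.9 to 98.2 FPKM in fasted liver. Their part in the results was not tested, and in bulk tissue fewer cells of a type and less RNA per cell cannot be told apart.

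RefSeq promoters (build GRCm38.p6, 250 bases before to 50 after each annotated start) were matched for 8 of the 9 genes, with 11 starts in all. Those of Elovl1 (both starts) and Acsl5, which rose, and of Acsl1 (both starts), which fell, are shown because these genes had the smallest adjusted p among the matched genes of each direction. Capitals mark 4 motifs searched on both strands, the GC box (GGGCGG), the CCAAT box (CCAAT), the E-box (CACGTG) and the core of the sterol response element (TCACNCCAC, with N any base).
Elovl1, start 1, plus strand, chr4:118427843-118428142: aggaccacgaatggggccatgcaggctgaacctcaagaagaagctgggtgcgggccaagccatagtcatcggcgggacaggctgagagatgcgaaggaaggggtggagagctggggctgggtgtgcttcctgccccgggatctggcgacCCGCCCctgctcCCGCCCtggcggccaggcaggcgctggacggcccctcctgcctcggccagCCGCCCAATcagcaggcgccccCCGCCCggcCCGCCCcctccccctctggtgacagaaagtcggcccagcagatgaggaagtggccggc
Elovl1, start 2, plus strand, chr4:118429451-118429750: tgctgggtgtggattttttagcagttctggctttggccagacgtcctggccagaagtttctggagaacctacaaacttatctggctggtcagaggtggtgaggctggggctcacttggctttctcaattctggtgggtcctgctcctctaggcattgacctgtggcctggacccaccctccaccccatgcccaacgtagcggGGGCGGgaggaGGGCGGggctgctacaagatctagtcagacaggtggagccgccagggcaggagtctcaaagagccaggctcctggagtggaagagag
Acsl5, plus strand, chr19:55253119-55253418: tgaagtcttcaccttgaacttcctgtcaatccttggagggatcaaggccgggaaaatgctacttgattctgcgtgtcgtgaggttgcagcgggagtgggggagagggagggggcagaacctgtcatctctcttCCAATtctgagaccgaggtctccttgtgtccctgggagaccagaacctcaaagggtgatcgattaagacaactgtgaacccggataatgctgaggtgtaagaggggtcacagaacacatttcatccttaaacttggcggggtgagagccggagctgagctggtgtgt
Acsl1, start 1, plus strand, chr8:46470787-46471086: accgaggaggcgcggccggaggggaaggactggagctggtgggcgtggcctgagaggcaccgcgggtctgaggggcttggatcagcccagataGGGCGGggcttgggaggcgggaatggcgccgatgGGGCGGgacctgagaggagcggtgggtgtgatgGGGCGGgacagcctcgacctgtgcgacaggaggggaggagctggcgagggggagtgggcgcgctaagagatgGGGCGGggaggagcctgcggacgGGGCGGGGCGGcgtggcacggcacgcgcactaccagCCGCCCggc
Acsl1, start 2, plus strand, chr8:46490716-46491015: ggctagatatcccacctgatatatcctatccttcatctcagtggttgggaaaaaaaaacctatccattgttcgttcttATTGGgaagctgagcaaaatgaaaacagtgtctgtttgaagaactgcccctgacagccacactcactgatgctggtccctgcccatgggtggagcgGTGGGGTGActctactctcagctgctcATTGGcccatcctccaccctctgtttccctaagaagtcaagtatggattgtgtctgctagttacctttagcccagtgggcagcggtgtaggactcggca

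The first Elovl1 window held 5 GC boxes and 1 CCAAT box, which shares bases with a GC box, and the second held 2 GC boxes and no CCAAT box. The Acsl5 window held 1 CCAAT box and no GC box. The first Acsl1 window held 7 GC boxes, some of which share bases, and the second held 2 CCAAT boxes and a sterol response element core 76 bases before the start. That core was the only one found in the 11 windows, and the single E-box was in the Elovl5 window. Of all 32851 RefSeq promoter windows of this length, 35.7% held a GC box, 37.4% a CCAAT box, 7.15% an E-box and 1.24% the sterol core. A match of letters is a description of these windows.

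Within each genotype 5 of the 9 genes passed the test of re-feeding. In LMKO liver these were Fads1, Elovl1 and Acsl5, which rose by 0.74, 1.71 and 0.71, and Elovl2 and Acsl1, which fell by 0.68 and 1.01 (limma adjusted p = 0.000843 to 0.0208; 39.5% of all loci were called, 23.2% higher and 16.3% lower). In control liver these were Fads1, Elovl1, Acsl3 and Acsl5, which rose by 0.86, 1.61, 1.04 and 0.88, and Acsl1, which fell by 1.33 (limma adjusted p = 0.00105 to 0.0411; 33.2% of all loci were called, 22.8% higher and 10.5% lower). Elovl2 in controls (-0.38, adjusted p = 0.115) and Acsl3 in LMKO (0.56, adjusted p = 0.186) were each called in the other genotype, which does not show that the responses differ. Fads3 had similar values of -0.58 in LMKO (adjusted p = 0.0558) and -0.61 in controls (adjusted p = 0.0545), neither called.

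The difference between the responses was tested by the interaction, the response in LMKO minus that in controls. None of the 9 genes passed, with 0 at an unadjusted p under 0.05 (limma; 0.0368% of all loci, or 4, were called, and 1016 had an unadjusted p under 0.05). The interaction lay between -0.48 for Acsl3 (SE 0.43, 95% interval -1.51 to 0.56) and 0.31 for Acsl1 (SE 0.36, 95% interval -0.54 to 1.17). For Elovl1, the most precisely measured, it was 0.10 (SE 0.16, 95% interval -0.29 to 0.48). With 2 mice a group these intervals are wide for most of the genes.

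These counts within a genotype rested on single libraries. In LMKO 3 genes were called without re-fed LMKO replicate 1, 3 without re-fed LMKO replicate 2, 1 without fasted LMKO replicate 1 and 2 without fasted LMKO replicate 2. In controls 3 genes were called without re-fed control replicate 2 and 2 without fasted control replicate 2. Elovl1 was called in both genotypes under all these settings. In the unfiltered fit only Elovl1 and Acsl5 were called in each genotype. With quantile normalization Fads1 and Acsl5 in LMKO were not called (0.29, adjusted p = 0.248, and 0.28, adjusted p = 0.155), nor was Fads1 in controls (0.50, adjusted p = 0.0799), while Elovl2 in LMKO stood at -1.18 and Acsl5 in controls at 0.50, both called. Fitting only the 4 control libraries left Fads1 (adjusted p = 0.0524) and Acsl3 (adjusted p = 0.0849) in controls uncalled. The median change of all loci in controls was 0.13, against 0.0011 with median-ratio scaling, under which Acsl3 in controls was not called (adjusted p = 0.0536). Other settings gained calls. Elovl2 in controls was called with median-ratio scaling (-0.53, limma adjusted p = 0.0336) and quantile normalization (-0.75, adjusted p = 0.0164). So was Fads3 in controls (adjusted p = 0.0281 and 0.0403). In LMKO, Fads3 was called with median-ratio scaling (adjusted p = 0.0352) and Fads2 with quantile normalization (adjusted p = 0.0297).

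**Figure D3:**
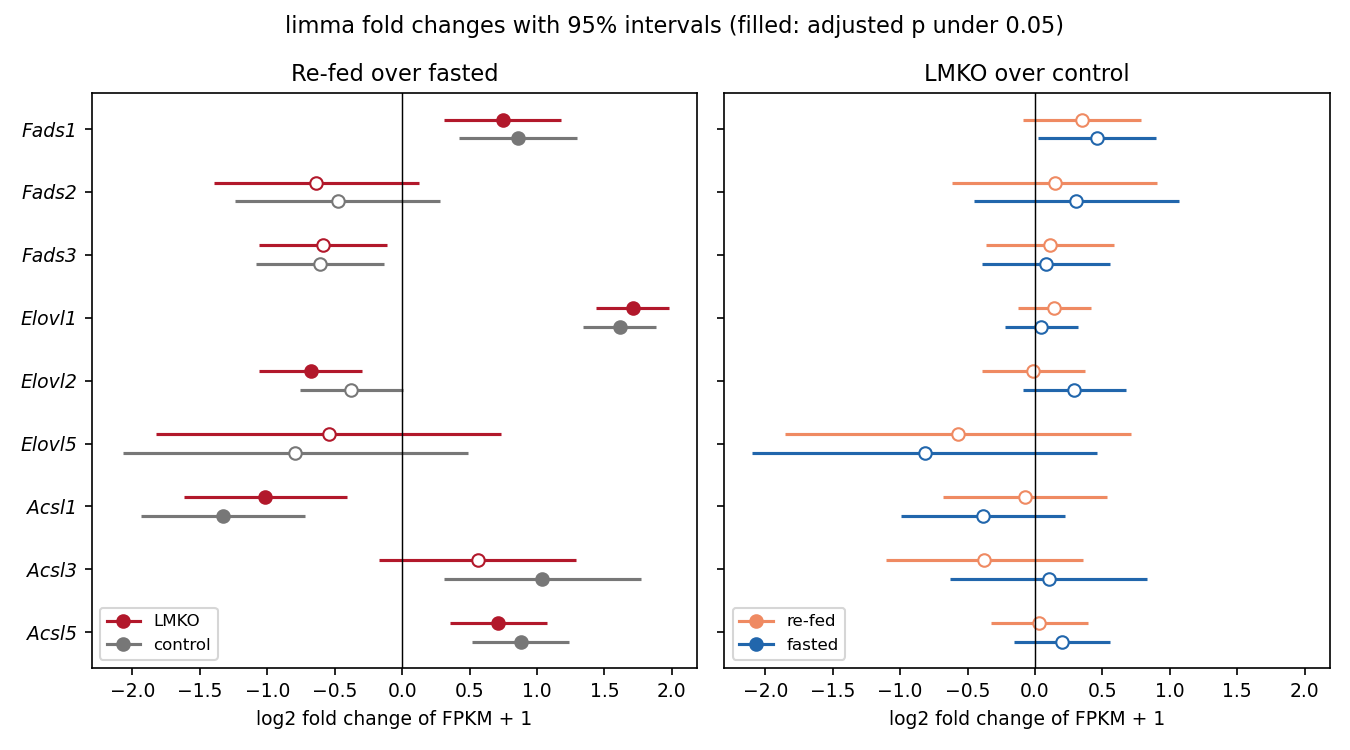
Log2 fold change of FPKM + 1 (horizontal axes) for the 9 genes, re-fed over fasted at left and LMKO over control at right, with limma 95% intervals; filled points have an adjusted p under 0.05. At left Elovl1 stands at 1.71 in LMKO and 1.61 in controls, and at right every point is open.

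The second question was how the 9 genes stood in the libraries labelled LMKO against those of controls, between which Med23 mRNA itself was not called. Med23 was lower in every LMKO library than in both controls of its feeding state, with an unadjusted limma p of 0.00486 over both states. In no feeding state did any of the 9 pass the test of LMKO against control. In re-fed liver 0.101% of all loci (11) were called, and 0 of the 9 genes and 1269 loci had an unadjusted p under 0.05. In fasted liver 0.166% (18) were called, and 1 of the 9 genes, Fads1, and 1342 loci had an unadjusted p under 0.05. Over both states 0.313% (34) were called, and again Fads1 alone of the 9 genes, with 1646 loci, had an unadjusted p under 0.05.

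Fads1 was the only one of the 9 that was higher in every LMKO library than in both controls of the same feeding state, a pattern shown upward by 10.1% of all loci. Its mean was 253 ± 31.1 FPKM in re-fed LMKO and 199 ± 22.0 FPKM in re-fed controls, and 150 ± 7.93 FPKM in fasted LMKO and 110 ± 23.4 FPKM in fasted controls (SD, n = 2 each). The log2 fold change was 0.35 re-fed (SE 0.18, limma adjusted p = 0.507), 0.46 fasted (SE 0.18, adjusted p = 0.379) and 0.40 over both states (SE 0.13, 95% interval 0.10 to 0.71, adjusted p = 0.242). The adjusted p of the last was between 0.151 and 0.492 in the alternatives.

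Elovl5 had the lowest LMKO to control value over both states, with a log2 fold change of -0.69 (SE 0.38, 95% interval -1.60 to 0.21, limma adjusted p = 0.433). Its mean was 92.8 ± 36.7 FPKM in re-fed LMKO and 150 ± 98.8 FPKM in re-fed controls, and 134 ± 42.6 FPKM in fasted LMKO and 239 ± 86.3 FPKM in fasted controls (SD, n = 2 each). Both fasted LMKO mice were below both fasted controls, but the re-fed groups overlapped. The other 7 genes lay between -0.23 for Acsl1 and 0.23 for Fads2 over both states. The interval for Elovl1 was the narrowest, at -0.10 to 0.29.

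In fasted liver 7 of the 9 genes had no overlap between LMKO and control mice, against 45.8% of all loci. Fads1, Fads2, Fads3, Elovl2 and Acsl5 were higher in both LMKO mice, against 33% of all loci, and Elovl5 and Acsl1 were lower, against 12.8%. In re-fed liver 2 of the 9, Fads1 and Elovl1, had no overlap, against 45% of all loci, and both were higher, against 25.6%. None of these differences passed the test.

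Levels of the 9 genes differed widely, and their order was not the same in re-fed and fasted liver. In re-fed LMKO the order by mean was Fads2 at 282, Fads1 at 253, Acsl1 at 215, Elovl2 at 176, Acsl5 at 157, Elovl5 at 92.8, Elovl1 at 36.5, Acsl3 at 8.44 and Fads3 at 2.44 FPKM. In re-fed controls Fads2 at 263, Acsl1 at 227 and Fads1 at 199 FPKM led. In both re-fed groups the mice of the leading 3 overlapped between neighbours, so their order is not resolved.

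In fasted LMKO the order was led by Fads2 at 432 and Acsl1 at 432 FPKM, which overlapped, followed by Elovl2 at 282 and Fads1 at 150 FPKM. In fasted controls Acsl1 at 568 FPKM stood above Fads2 at 350 FPKM without overlap, and Elovl5 at 239 and Elovl2 at 232 FPKM overlapped. Fads1 thus ranked 2 and 3 by mean in re-fed LMKO and re-fed controls, and 4 and 5 in fasted LMKO and fasted controls. Elovl1, Acsl3 and Fads3 were the last 3 in every group. The level of Fads3 overlapped that of Acsl3 in fasted controls.

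For the 7 genes with a mean of at least 10 FPKM over all libraries, the loci with the most similar profile were found among 4436 candidates, by the root mean square difference of centred log2(FPKM + 1) over the 8 libraries. The closest locus to Elovl1 was Ddost, at a difference of 0.0442, followed by Ppib, where the Elovl1 profile itself varied by 0.834. Closest to Elovl2 was Pbld1 (0.0622), to Fads1 Mrpl49 (0.0872), to Acsl5 Apom (0.0911), to Acsl1 A1cf (0.159) and to Fads2 Rab7 (0.166). Elovl5 had no locus nearer than Tymp, at 0.314, against 0.686 for its own variation. The profiles share the same 8 libraries and their feeding contrast.

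The other steps of the pathway were described from lists of genes with related function, each set beside all loci in re-fed over fasted liver, of which 32.4% were called higher and 20.6% lower, with a median log2 fold change of 0.10. Some proteins of the cytochrome b5 system, but not all, pass electrons to the desaturases. The remaining enzymes of the elongation cycle and this system held 10 tested genes of 12. Of these 6 rose, 0 fell and 4 did not pass, with a median of 0.60. Cyb5r3, the cytochrome b5 reductase, had an FPKM of 201 and 183 in re-fed LMKO, 206 and 203 in re-fed controls, 83.4 and 105 in fasted LMKO and 81.1 and 71.0 in fasted controls. It rose by 1.22 (limma adjusted p = 0.000347), Cyb5b by 1.95 (adjusted p = 0.000634), the ketoacyl reductase Hsd17b12 by 0.97 (adjusted p = 0.000924) and the dehydratase Ptpla, also named Hacd1, by 0.83 (adjusted p = 0.000391). Cyb5, also named Cyb5a, rose by 1.01 (limma adjusted p = 0.00112).

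The other desaturases and elongases, among them those that make monounsaturated chains, had 5 tested genes of 9, of which 2 rose and 0 fell, with a median of 1.72. Elovl6, which extends palmitate, rose by 1.82 (limma adjusted p = 0.00262) and Scd2 by 0.70 (adjusted p = 0.0224). Scd2 was low, at 0.772 to 2.42 FPKM in re-fed and 0.575 to 1.02 FPKM in fasted liver, and these ranges overlapped. Scd1, the main stearoyl-CoA desaturase of liver, had an FPKM of 353 and 37.5 in re-fed LMKO, 241 and 368 in re-fed controls, 27.7 and 189 in fasted LMKO and 12.4 and 48.3 in fasted controls. The re-fed and fasted libraries of Scd1 overlapped, and its log2 fold change of 2.10 was not called (adjusted p = 0.0885). Elovl3 had a value of 1.72 that was not called either (adjusted p = 0.0862). The count of this list ran from 1 to 4 when a library was left out, with 4 called without re-fed LMKO replicate 2 and 1 without re-fed control replicate 2, fasted LMKO replicate 1 or fasted control replicate 2.

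The other acyl-CoA synthetases had 5 tested genes of 10, of which 0 rose and 2 fell, with a median of -0.35. Slc27a2, a very-long-chain acyl-CoA synthetase and transporter of liver, stood at 327 to 334 FPKM in re-fed and 1055 to 1304 FPKM in fasted liver. Its log2 fold change was -1.83 (limma adjusted p = 7.34e-05), and that of Slc27a1 was -1.15 (adjusted p = 0.000369). Acsl1 moved in the same direction as these, and Acsl3 and Acsl5 in the other.

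Peroxisomal chain shortening, the last step to docosahexaenoic acid, had 12 tested genes of 12, of which 0 rose, 6 fell and 6 did not pass, beside the 32.4% higher and 20.6% lower of all loci, with a median of -0.48. Ehhadh, which encodes a bifunctional enzyme, showed the lowest log2 fold change of the list, -2.05 (limma adjusted p = 0.00238). Decr2 had a value of -1.08 (adjusted p = 0.00322) and Hsd17b4 one of -0.78 (adjusted p = 0.00242). Elovl2, which supplies the chains that are shortened, moved in the same direction at -0.53.

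The list of acyltransferases, lipases and related genes concerns the placing and release of polyunsaturated chains in phospholipids. Not every member carries out these steps, and release of chains was not measured. The list had 8 tested genes of 13, of which 1 rose and 4 fell, with a median of -0.50. Lpcat3, the enzyme that puts arachidonate into phosphatidylcholine, fell by 0.51 on the log2 scale (limma adjusted p = 0.00481). Agpat3 fell by 0.82 (adjusted p = 0.00144) and Mfsd2a, a transporter of lysophosphatidylcholine that carries docosahexaenoic acid, fell by 1.79 (adjusted p = 0.00736). The Mfsd2a value was -0.73 in LMKO (adjusted p = 0.307, not called) and -2.84 in controls (adjusted p = 0.0103), a difference that was not called in the interaction (2.11, adjusted p = 0.507), and re-fed and fasted libraries overlapped across genotypes. Pla2g12b rose by 0.51 (adjusted p = 0.00745), a call that was lost with quantile normalization and once the length trend was removed.

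Among the regulators 13 of 13 genes were tested, of which 4 rose and 5 fell, with a median of -0.10. Srebf1, which encodes SREBP-1, had an FPKM of 108 and 85.8 in re-fed LMKO, 154 and 111 in re-fed controls, 16.6 and 27.5 in fasted LMKO and 12.5 and 3.68 in fasted controls. It rose by 3.09 (limma adjusted p = 0.000751), and Nr1h3, which encodes LXR-alpha, by 0.70 (adjusted p = 0.00074). Scap, the escort protein of SREBP, had a log2 fold change of -0.65 (adjusted p = 0.00182) and Ppara of -1.43 (adjusted p = 0.00211). Re-fed liver therefore held more Srebf1 and less Ppara mRNA, and other regulators were also called in each direction. In the same comparison Fads1, Elovl1, Acsl3 and Acsl5 were called higher and Fads3, Elovl2 and Acsl1 lower. Fads2 (-0.56) and Elovl5 (-0.67) had negative log2 fold changes that were not called. A link between the regulators and these genes was not tested.

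**Figure D4:**
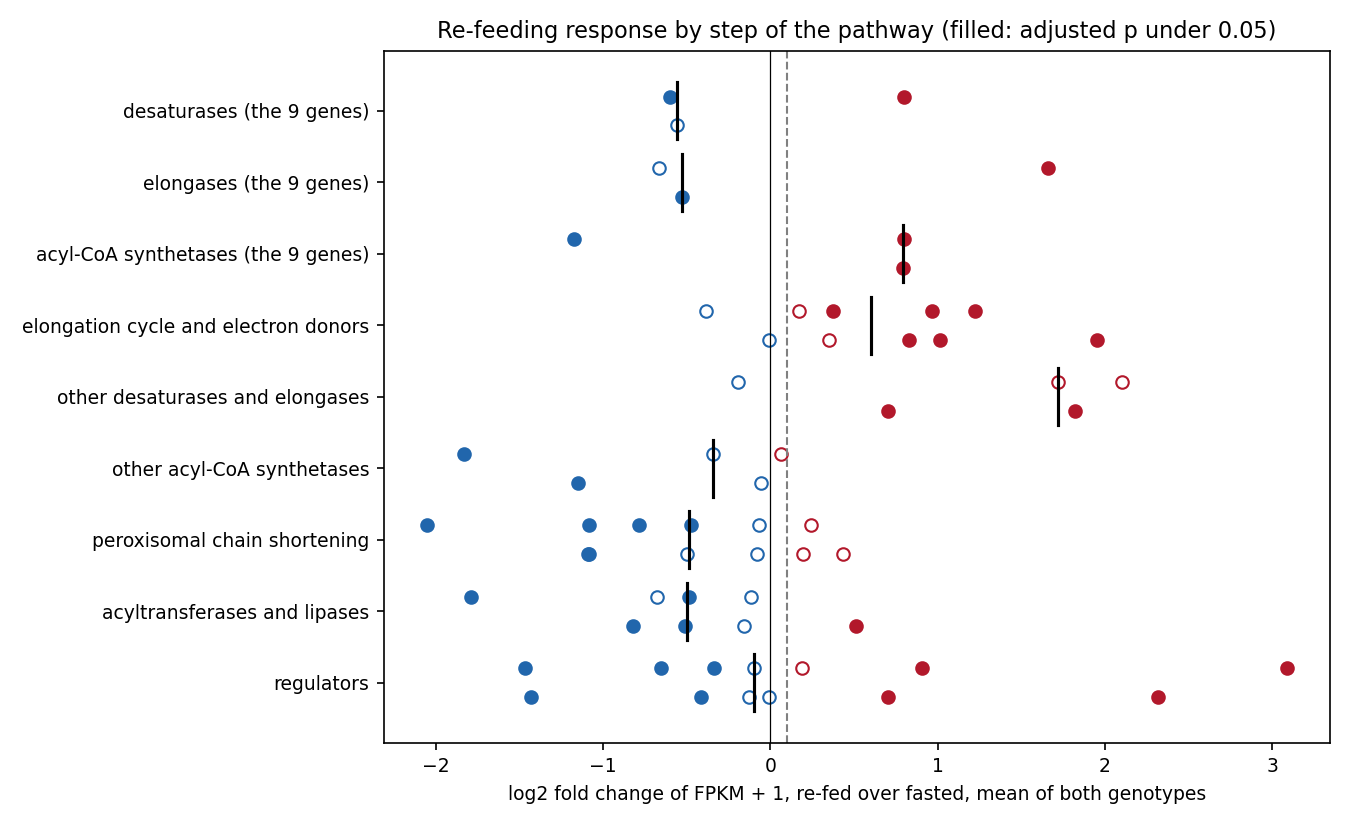
Log2 fold change of FPKM + 1, re-fed over fasted liver over both genotypes (horizontal axis), for the tested genes of each step (rows); filled points have an adjusted p under 0.05, short bars are medians of a row and the dashed line is the median of all loci at 0.10. Of the 10 tested genes of the elongation cycle and electron donors 6 rose, and of the 12 peroxisomal genes 6 fell.

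Of the 53 tested genes of these lists, 0 were called by limma in any comparison of LMKO with control or in the interaction. At an unadjusted p under 0.05 stood 6 of them in re-fed liver, 11 in fasted liver, 10 over both states and 8 in the interaction. These are 11.3%, 20.8%, 18.9% and 15.1% of the 53, beside 11.7%, 12.4%, 15.1% and 9.35% of all loci in the same comparisons. Over both states their smallest adjusted p in limma was 0.106, for Scap at -0.51 on the log2 scale, followed by Nr1h3 at 0.39 (adjusted p = 0.128). In fasted liver the peroxisomal transporter Abcd2 had the smallest, at 1.79 (adjusted p = 0.108), Mlxipl, which encodes ChREBP, had a value of 1.23 (adjusted p = 0.173) and Srebf1 one of 1.5 (adjusted p = 0.303). Nr1h3, like Fads1, was higher in every LMKO library than in both controls of its feeding state, against 10.1% of all loci. Ptpla and Acaa1b of the lists showed this pattern too. None of these genes was called for LMKO over control. The mean of Srebf1 was lower in re-fed LMKO than in re-fed controls (97.0 against 132 FPKM). It was higher in fasted LMKO than in fasted controls (22.0 against 8.07 FPKM). A link among these genes was not tested.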

How the data were processed

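Polyadenylated liver RNA was sequenced in 8 libraries, 2 mice in each of 4 groups taken from the sample labels. The FPKM values were computed and deposited by the authors. Per the submitters' processing notes, TopHat 1.4.1, Cufflinks 2.0.2 and Cuffdiff 2.0.2 were used with the mouse build mm9. No scaling was added, the fragment depth is unknown and no count model was used. An FPKM of 0 is given as listed at 0. Deposited starts count from 0 and are printed 1 higher.

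The 10865 loci that reached 1 FPKM in 2 or more libraries were fitted on log2(FPKM + 1) by limma 3.58.1 (R 4.3.3), with a model of 4 group means, 4 residual and 2.74 prior degrees of freedom (eBayes with trend), two-sided p-values and Benjamini-Hochberg adjustment over the loci of each comparison. The pseudocount of 1 understates the fold change of genes with low values. The procedure was checked on simulated data with independent noise and few changed loci, a simpler setting than these data. From each list the text names up to 4 genes with the smallest p and a mean of 1 FPKM or more in the highest group. Some genes that this rule takes are left out, and Cyb5 is named for re-feeding in addition. Overlapping motif matches were each counted.

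The 9 genes and the lists were chosen with earlier results of these data known. Alternatives were pseudocounts of 0.1 and 0.5, no filter, an FPKM of at least 5 in 2 libraries, median-ratio scaling, quantile normalization, eBayes without trend or robust, a fit of only a comparison's own libraries, a replicate block, removal of the length trend (98.9% of tested loci had a length) and leaving out each library. A genome of the build mm9 and protein sequences were not used here.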

Additional observations from a re-analysis of the deposited data

How the results depend on the processing

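Over the alternatives, Fads1, Elovl1, Elovl2, Acsl1 and Acsl5 were called in re-fed over fasted liver over both genotypes in all 18 settings, and every other change of a call in that comparison is given with its gene above. The count of called genes in LMKO was 2 with no filter on low values and 1 to 5 when a library was left out, against 5. In controls it was 2 with no filter and 2 to 6 when a library was left out, against 5. No alternative gave a call among the 9 genes for LMKO over control or the interaction. A library left alone in its group is assumed to vary like the others. Fads3 was not tested in the alternative with an FPKM of at least 5 in 2 libraries.

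Deviations of same-numbered mice correlated at -0.0835 to -0.00835 over 6 pairs of groups. These correlations are across genes, which are not independent, and cannot show whether same-numbered mice shared a batch. The main fit used no pairing. With a replicate block 7 of the 9 genes were called over both genotypes, 5 in LMKO and 4 in controls, with 0 for LMKO over control and the interaction, and over all loci 18 were called for LMKO over control in both states, against 34.

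Values that changed sign were all uncalled, and the cause was not tested. For LMKO over control in re-fed liver these were Fads2 at -0.0314 and Acsl5 at -0.0602 with quantile normalization, and Elovl2 at 0.0148 and Acsl1 at 0.0006 with the length trend removed. In fasted liver Elovl1 was -0.0402 with median-ratio scaling, -0.0238 with quantile normalization and -0.0094 with the length trend removed. When a library was left out, re-fed values ranged from -0.32 to 0.61 for Fads2, -0.19 to 0.41 for Fads3, -0.0640 to 0.0407 for Elovl2, -1.29 to 0.15 for Elovl5, -0.33 to 0.19 for Acsl1 and -0.14 to 0.21 for Acsl5. Fasted values ranged from -0.0253 to 0.12 for Elovl1 and -0.34 to 0.54 for Acsl3, and values over both states from -0.0073 to 0.46 for Fads2, -0.0558 to 0.25 for Fads3 and -0.36 to 0.0842 for Acsl3. Interaction values ranged from -0.33 to 0.10 for Fads1, -0.63 to 0.31 for Fads2, -0.27 to 0.33 for Fads3, -0.47 to 0.97 for Elovl5 and -0.34 to 0.0059 for Acsl5.

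Over all loci, no filter gave 2092 calls for controls re-fed over fasted (against 3610), 56 for re-fed LMKO over control (against 11), 35 for fasted (against 18), 86 over both states (against 34) and 68 for the interaction (against 4). Fitting only the 4 libraries of a comparison gave 1968 for controls re-fed over fasted and 8 for fasted LMKO over control. Leaving out a library gave 2193 to 4251 calls for LMKO re-fed over fasted (against 4296), 1539 to 3151 for controls, 5 to 14 for re-fed LMKO over control, 12 to 57 for fasted, 18 to 55 over both states and 3 to 16 for the interaction. Of the calls for controls re-fed over fasted 68.5% were higher, against 51.4%, 49.7% and 52.2% with median-ratio scaling, quantile normalization and the length trend removed; of those for LMKO over control in both states 29.4% were higher, against 15.4% with quantile normalization. Other acyl-CoA synthetases called numbered 4 with no filter, against 2, and other desaturases and elongases 1 with no filter or with an FPKM of at least 5. The unknown fragment depth and 2 mice a group limit the precision, most for Elovl5 and Fads2.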
